A study of Mus musculus with 13 samples.

Results

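The miR-181 family was followed through small RNA-seq of thymic iNKT cells of 6 WT and 7 *Tet2/3* DKO mice. Its members were taken by name: the 6 hairpins mmu-mir-181a-1, mmu-mir-181a-2, mmu-mir-181b-1, mmu-mir-181b-2, mmu-mir-181c and mmu-mir-181d out of 1127 listed hairpins, and all 10 mature sequences of miR-181a, b, c and d out of 1297 listed mature sequences. All 6 hairpins and all 10 mature sequences had enough counts to be tested, as did 350 hairpins and 401 mature sequences in all. The question behind the experiment was whether iNKT cells that lack TET2 and TET3, enzymes that oxidize 5-methylcytosine in DNA, differ in their miRNAs. WT mice were C57BL/6. *Tet2/3* DKO mice (Tet2-/-Tet3flx/flxcd4cre) lack *Tet2* in the whole animal and *Tet3* only in cells that have expressed CD4 cre, that is in T lineage cells, and the cre transgene is part of the difference between the groups. All mice were 21 to 25 days old, both sexes were used in each genotype, and each mouse gave 1 library from live TCRβ+ tetramer+ cells sorted after depletion of CD24+ thymocytes. Small RNA libraries do not read *Tet2* or *Tet3* mRNA, so the deletions were not checked in these data.

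A miRNA gene is transcribed as a long primary transcript from which DROSHA releases the hairpin. DICER cuts the hairpin to a duplex of a 5p and a 3p arm, and usually one arm is kept by ARGONAUTE while the other is degraded. The retained arm recognizes mRNAs mainly through its seed, the bases from position 2 to position 8. MiR-181a is abundant in CD4+CD8+ thymocytes, where it lowers phosphatases that dampen TCR signaling, and mice lacking the mir-181a-1 and mir-181b-1 locus have few iNKT cells.

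The mature sequences are shown first because they decide which counts can be assigned to a locus. In each line the seed is in capitals, and the sequences are those of RefSeq on GRCm38.p6, where all 10 members had an entry. The 4 abundant 5p arms share 1 seed.

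miR-181a-5p: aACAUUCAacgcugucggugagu
miR-181b-5p: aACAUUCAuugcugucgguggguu
miR-181c-5p: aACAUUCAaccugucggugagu
miR-181d-5p: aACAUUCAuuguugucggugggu

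Counting from the 5′ end, miR-181b-5p differs from miR-181a-5p by A9U, C10U and A21G, and miR-181d-5p differs from miR-181b-5p by C12U, over the 23 bases that all of them have, after which miR-181b-5p has a final U. MiR-181c-5p is miR-181a-5p without the G at position 11. Of the 1297 listed mature sequences, 1078 had a RefSeq sequence, and 0 of these outside the family carried the seed of the 5p arms. The 6 minor 3p arms fall into 4 seed groups.

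miR-181a-1-3p: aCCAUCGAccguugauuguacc
miR-181c-3p: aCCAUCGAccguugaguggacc
miR-181a-2-3p: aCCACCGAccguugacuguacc
miR-181b-1-3p: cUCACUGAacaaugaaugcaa
miR-181b-2-3p: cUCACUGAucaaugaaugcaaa
miR-181d-3p: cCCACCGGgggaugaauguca

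MiR-181a-2-3p differs from miR-181a-1-3p by U5C, inside the seed, and by U16C. MiR-181b-2-3p differs from miR-181b-1-3p by A9U in the bases that both have. The 3p arms are thus distinct for each locus, while miR-181a-5p and miR-181b-5p are each made from 2 loci and carry no mark of their origin.

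The hairpins of these loci show the same. In the lines below both mature arms are in capitals.

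Mir181a-1: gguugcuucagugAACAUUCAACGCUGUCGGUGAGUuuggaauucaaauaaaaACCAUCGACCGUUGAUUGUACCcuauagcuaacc
Mir181a-2: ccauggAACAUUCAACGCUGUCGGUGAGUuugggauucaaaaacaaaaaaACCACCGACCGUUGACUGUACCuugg
Mir181b-1: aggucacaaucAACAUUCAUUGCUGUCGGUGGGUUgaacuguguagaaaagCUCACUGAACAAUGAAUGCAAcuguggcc
Mir181b-2: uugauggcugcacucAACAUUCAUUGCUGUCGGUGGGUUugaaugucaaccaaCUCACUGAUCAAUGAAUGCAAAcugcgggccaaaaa

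The hairpins of mir-181a-1 and mir-181a-2 share an unbroken run of 28 bases that holds the whole 5p arm, and those of mir-181b-1 and mir-181b-2 share a run of 26 bases that holds theirs. The count of mir-181a-2 was between 97.5% and 99.1% of that of mir-181a-1 in each of the 13 libraries. Reads from both hairpins thus could not be told apart, and the counts of this pair are close to 1 measurement. How the counting dealt with a read that matches more than one sequence is not given in the sources used here.

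The family lies in 3 clusters of 2 hairpins each (GRCm38, GENCODE vM21). Mir181a-1 (chromosome 1, 137966455 to 137966541) and Mir181b-1 (137966639 to 137966718) are on the plus strand with 97 bases between them, in an exon of the long noncoding RNA A430106G13Rik. Mir181a-2 (chromosome 2, 38852735 to 38852810) and Mir181b-2 (38853830 to 38853918) are on the plus strand, 1019 bases apart, in an intron of *Nr6a1*, which is transcribed from the minus strand. Mir181d (chromosome 8, 84178716 to 84178787) and Mir181c (84178873 to 84178961) are on the minus strand, 85 bases apart, in an intron of *Nanos3*.

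Counted totals in the mature table ran from 1110852 to 2582057 per WT library and from 1837631 to 4361963 per *Tet2/3* DKO library, and in the hairpin table from 469117 to 1110226 and from 728653 to 1910526, so WT was shallower. Levels are counts divided by the TMM-scaled library size (CPM, counts per 1e+06), a method that assumes most miRNAs do not differ, and so they are relative to other miRNAs and not amounts per cell. With library size in place of TMM, the median log2 fold change of all tested hairpins was 0.36 and not 0.02, and that of mature sequences 0.24 and not -0.01. The split of hairpins past the threshold was 114 higher and 95 lower with TMM, 151 and 56 with library size only, and 93 and 137 with upper-quartile scaling. For mature sequences it was 113 and 110, 142 and 77, and 89 and 132. TMM scales to 1 reference library, and with each of the 13 in turn the count of members past the threshold was the same, while the log2 fold change of miR-181a-5p lay between -0.14 and -0.03. Of miRNAs that mark blood and T cells, miR-142a-3p was at 27306 ± 2108 CPM in WT (SD, n = 6) and miR-150-5p at 26723 ± 6756. Both were lower in *Tet2/3* DKO, at 20556 ± 2894 and 11833 ± 3403 CPM (log2 fold changes -0.41 and -1.18, edgeR adjusted p = 0.00241 and 3.58e-05). MiR-146a-5p was at 4863 ± 680 CPM in WT and 4874 ± 2209 in *Tet2/3* DKO. The summed level of 10 markers of red cells, myeloid cells, liver, stroma, epithelium and endothelium spanned 1216 to 2339 CPM in WT and 751 to 947 CPM in *Tet2/3* DKO, with WT replicates 5 and 6 highest. Of the 8 that could be tested 7 were lower in *Tet2/3* DKO (edgeR's quasi-likelihood test, 0.05 as threshold for adjusted p). The endothelial miR-126a-3p was the 1 that was higher (log2 fold change 0.69). Of all tested mature sequences 27.4% were lower and 28.2% higher. Of the 10 markers 0 were at 0 in every library, although miR-205-5p, an epithelial marker, had a median of 0 CPM in both genotypes. Their part in the results was not tested. Counts of members are also given without both of these WT libraries where those counts change.

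In WT iNKT cells the family held between 12.3% and 17.7% of all mature counts (median 14.5%, n = 6), nearly all of it in the 5p arms. MiR-181a-5p alone made up 85.5% ± 1.14 of the family's counts. It was the second most abundant of the tested mature sequences in both genotypes (rank 2 of 401). The mature members are between 21 and 24 bases long, so their CPM can be set side by side, although ligation during library preparation favours some ends. In WT, miR-181a-5p stood at 140494 ± 20477 CPM, followed by miR-181b-5p at 20005 ± 3487, miR-181d-5p at 1377 ± 70.4 and miR-181a-1-3p at 1366 ± 280. The ranges of the last pair overlapped, so their order was not resolved. MiR-181c-5p (598 ± 97.1 CPM), miR-181c-3p (236 ± 36.2) and miR-181a-2-3p (115 ± 31.0) followed without overlap between neighbours. MiR-181d-3p (11.9 ± 7.17), miR-181b-1-3p (9.55 ± 1.84) and miR-181b-2-3p (2.69 ± 1.56) were rare, and the range of miR-181d-3p overlapped those of both others. In *Tet2/3* DKO the family held between 15.2% and 19.4% of mature counts, and miR-181a-5p made up 83.3% ± 2.23 of it.

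**Figure D1:**
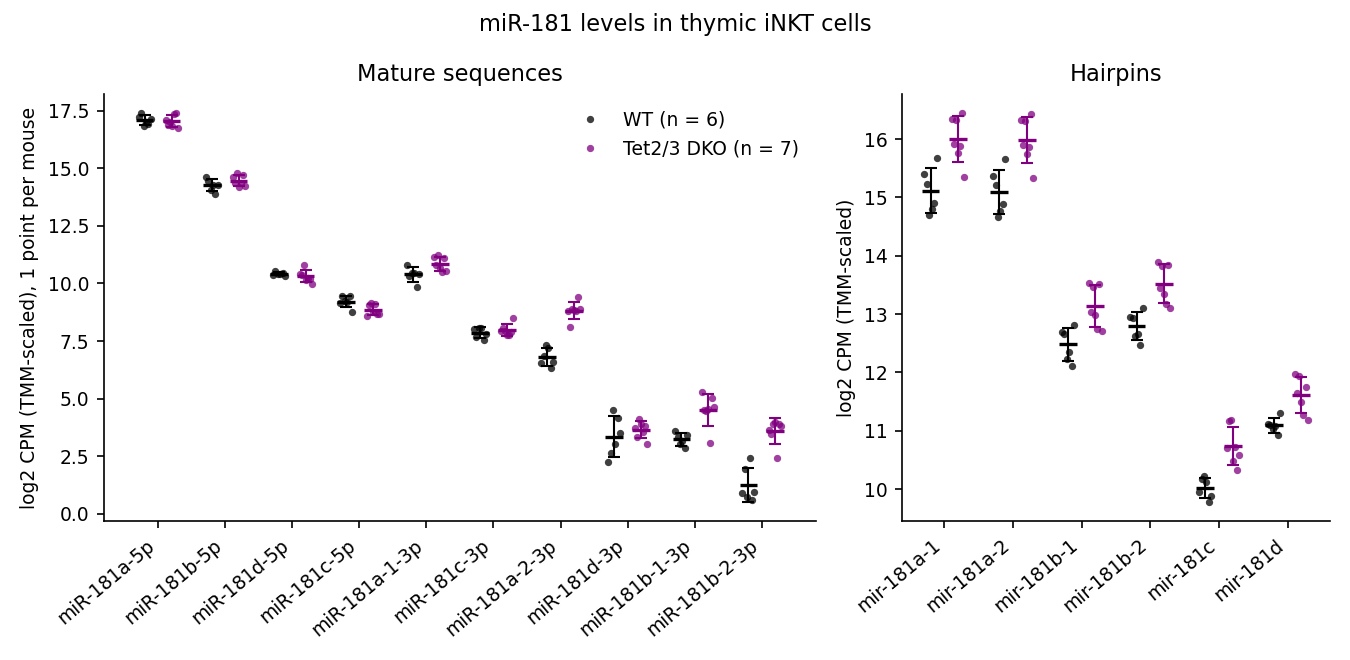
Level of each miR-181 mature sequence (left) and hairpin (right) as log2 CPM after TMM scaling, with 1 point per mouse in WT (black, n = 6) and Tet2/3 DKO (purple, n = 7). Horizontal lines are means and bars are SD. The 5p arms of both genotypes lie at about the same height, while miR-181a-2-3p and the mir-181c hairpin are higher in every Tet2/3 DKO mouse than in any WT mouse.

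The abundant 5p arms, the ones that direct silencing in most cells, showed little difference between genotypes. Of the 4, 1 passed the test, miR-181c-5p, which fell, where 28.2% of all tested mature sequences were called higher and 27.4% lower in *Tet2/3* DKO by edgeR's quasi-likelihood test (Benjamini-Hochberg adjusted p over all 401 below 0.05). Their median log2 fold change was -0.07, against -0.01 for all tested mature sequences. MiR-181a-5p ranged from 115514 to 170937 CPM among WT mice (median 137907) and from 111300 to 171025 CPM among *Tet2/3* DKO mice (median 134069). These ranges nearly coincide (log2 fold change -0.03, SE 0.123, edgeR adjusted p = 0.832).

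MiR-181b-5p ranged from 15328 to 24964 CPM among WT mice (median 19902) and from 18491 to 28484 CPM among *Tet2/3* DKO mice (median 21120), and 4 of the 7 *Tet2/3* DKO mice lay within the WT range. Its log2 fold change was 0.19 (SE 0.127, edgeR adjusted p = 0.210), and with library size only it was 0.42 (adjusted p = 0.00676). MiR-181d-5p was 1377 ± 70.4 CPM in WT and 1286 ± 249 in *Tet2/3* DKO (-0.10, SE 0.121, edgeR adjusted p = 0.497). Its WT values ran from 1299 to 1495 CPM. In *Tet2/3* DKO it ran from 1014 to 1791 CPM, with replicate 3 highest and replicate 1 next at 1361, and its spread was not tested. With upper-quartile scaling its log2 fold change was -0.28 (adjusted p = 0.0460), and with library size only it was 0.15.

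MiR-181c-5p, which lies in the same cluster as miR-181d-5p, ranged from 437 to 703 CPM among WT mice (median 595) and from 384 to 575 CPM among *Tet2/3* DKO mice (median 437). All 7 *Tet2/3* DKO mice were under the highest WT mouse, and the ranges overlapped. Relative to WT it changed by -0.34 on the log2 scale (SE 0.137, edgeR adjusted p = 0.0371). This call was lost with library size only (-0.09), with DESeq2 (-0.31, adjusted p = 0.0953), with a filter of at least 1 count (-0.26, edgeR adjusted p = 0.213) and without *Tet2/3* DKO replicate 1, 4 or 6 (-0.32, -0.38 and -0.33).

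The minor 3p arms behaved otherwise. Of the 6, miR-181b-2-3p passed the filter on low counts only through the *Tet2/3* DKO libraries, where it was high (over the filter's CPM limit in 1 of 6 WT and 7 of 7 *Tet2/3* DKO libraries), so it is described without a test. The other 5 were over that limit in every library. Of these 5, 3 rose in *Tet2/3* DKO, which are those of mir-181a-1, mir-181a-2 and mir-181b-1, and 2 did not pass the test. Of all tested mature sequences, 28.2% were called higher. The median log2 fold change of the 5 was 0.47, against -0.07 for the 168 tested 3p sequences of all miRNAs. MiR-181a-2-3p rose most clearly. It ranged from 81.2 to 159 CPM among WT mice (median 105) and from 277 to 689 CPM among *Tet2/3* DKO mice (median 457), from 99 to 388 counts per WT library and from 1060 to 2847 per *Tet2/3* DKO library. Every *Tet2/3* DKO mouse was above every WT mouse, which was the case for 12.7% of tested mature sequences and for 1 of the 10 of the family. This 4.05-fold rise corresponds to a log2 fold change of 2.02 with an SE of 0.194 (edgeR adjusted p = 4.33e-08).

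MiR-181b-2-3p, from the same cluster, is rare. It had from 2 to 12 counts per WT library (median 3.5) and from 21 to 76 per *Tet2/3* DKO library (median 49), or 2.69 ± 1.56 CPM against 12.7 ± 3.65. The highest WT mouse (replicate 4) lay just above the lowest *Tet2/3* DKO mouse (replicate 5). The fitted level was 4.59 times as high in *Tet2/3* DKO, a value that rests on few WT counts, and the log2 fold change lay between 2.00 and 2.49 when each mouse was left out in turn.

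From the cluster on chromosome 1, miR-181b-1-3p rose from 13 to 20 counts per WT library to 33 to 151 per *Tet2/3* DKO library, or from 9.55 ± 1.84 to 24.7 ± 9.49 CPM. Replicate 5 of *Tet2/3* DKO, at 8.43 CPM, was the exception and lay within the WT range. Its rise was 1.38 in log2 units (SE 0.315, edgeR adjusted p = 0.000800).

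MiR-181a-1-3p, the most abundant of the 6, rose less. It ranged from 921 to 1791 CPM among WT mice (median 1391) and from 1464 to 2447 CPM among *Tet2/3* DKO mice (median 1797), and 3 of the 7 *Tet2/3* DKO mice lay within the WT range. The rise was 0.47 in log2 units (SE 0.150, edgeR adjusted p = 0.0106). This call depends on the mice included and on scaling, which was refitted without each mouse. With each library in turn as TMM reference the log2 fold change lay between 0.37 and 0.48. The rise was past the threshold in 8 of the 13 fits that each left out 1 mouse, and not without WT replicate 2, 4, 5 or 6 or *Tet2/3* DKO replicate 3. Without WT replicate 5 the log2 fold change was 0.30, without both WT replicates 5 and 6 it was 0.28 (edgeR adjusted p = 0.136), and with upper-quartile scaling it was 0.29 (edgeR adjusted p = 0.0882). Without WT replicates 5 and 6, miR-181a-2-3p and miR-181b-1-3p were the members still called higher among the 9 other than miR-181b-2-3p.

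The 3p arms from the cluster on chromosome 8 did not pass the test. MiR-181c-3p was 236 ± 36.2 CPM in WT and 257 ± 50.4 in *Tet2/3* DKO (log2 fold change 0.12, SE 0.146), and its highest value, 364 CPM, was that of *Tet2/3* DKO replicate 7. MiR-181d-3p was 11.9 ± 7.17 and 12.8 ± 3.13 CPM (0.07, SE 0.347), from 5 to 56 counts per WT library, so that only a large difference could have been seen.

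**Figure D2:**
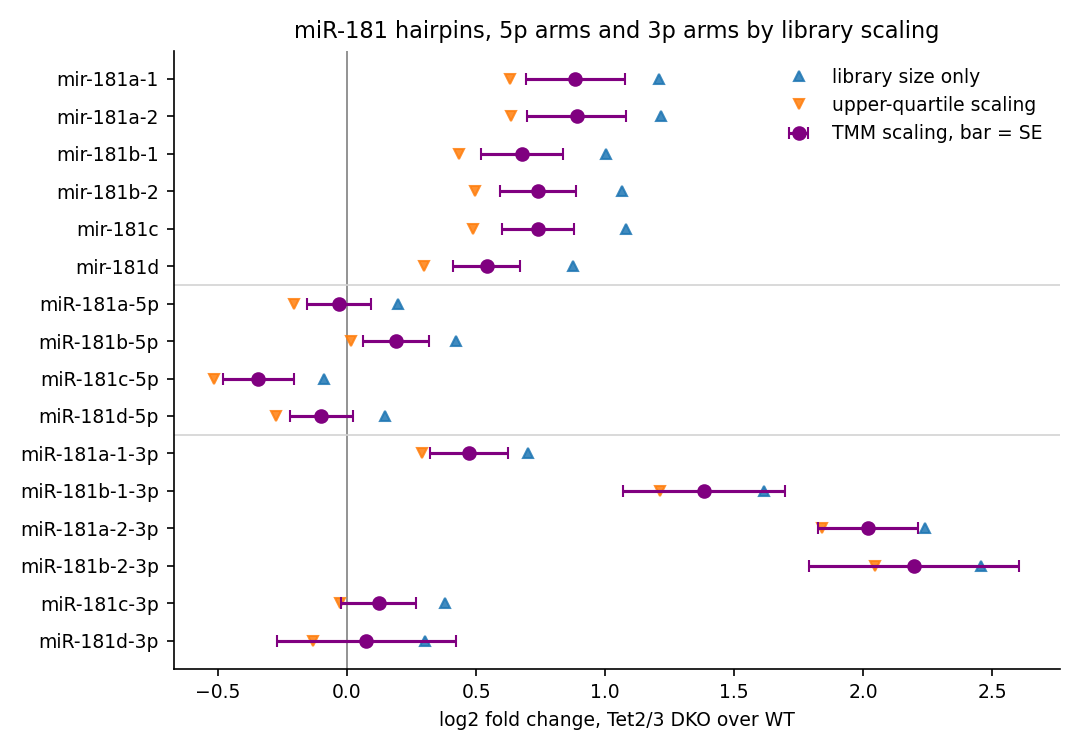
Log2 fold change of Tet2/3 DKO over WT for the 6 hairpins (top), 4 mature 5p arms (middle) and 6 mature 3p arms (bottom), with TMM scaling (purple, bars are SE), library size only (blue) and upper-quartile scaling (orange). The hairpins and the 3p arms of the loci on chromosomes 1 and 2 are above 0 under each of these scalings, while miR-181a-5p and miR-181d-5p lie on both sides of 0.

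A ratio of both arms in one library needs no scaling between libraries. The log2 ratio of 3p to 5p counts, with 0.5 added to each count, was compared by limma for 119 pairs of arms. Since miR-181a-5p and miR-181b-5p each pool 2 loci, the ratios to them are not those of a single hairpin. The pairs of mir-181a-1 and mir-181a-2 share a denominator, and in them a shift between loci and a shift between arms cannot be told apart. Leaving aside mir-181b-2 for its low WT counts, 3 of the 5 miR-181 pairs rose, where 12.6% of all pairs were called higher in *Tet2/3* DKO, and the median change was 0.51 for these 5 and 0.14 for all pairs. The 3p arm of mir-181a-2 was 0.0842% ± 0.0317 of miR-181a-5p in WT (SD, n = 6) and 0.341% ± 0.0725 in *Tet2/3* DKO (SD, n = 7), without overlap, as for 5.04% of pairs. Its log2 ratio changed by 2.06 (SE 0.183, limma adjusted p = 1.13e-11). A two-sided exact permutation test over the 1716 divisions of the 13 mice gave p = 0.000583, the smallest value this design allows.

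For mir-181b-2 the 3p arm was 0.0134% ± 0.00741 of miR-181b-5p in WT and 0.0565% ± 0.0191 in *Tet2/3* DKO. The log2 ratio differed by 1.97 (SE 0.419), and by 1.09 with 5 added to each count, which damps rare arms. For mir-181b-1 the share went from 0.0477% ± 0.00360 to 0.108% ± 0.0383, a change of 1.04 (SE 0.311, limma adjusted p = 0.0128, exact permutation p = 0.00816). The WT mice were close together and *Tet2/3* DKO replicate 5 lay below all of them. For mir-181a-1 it went from 0.981% ± 0.205 to 1.40% ± 0.296, a change of 0.51 (SE 0.158, limma adjusted p = 0.0168, exact permutation p = 0.0204). The mir-181a-1 ratio was not past the threshold without WT replicate 2 (0.44), without WT replicate 5 (0.43), without both WT replicates 5 and 6 (0.41), or when limma's trend was left out (adjusted p = 0.104).

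The mir-181c arms are far more even. MiR-181c-3p was 40.7% ± 9.94 of miR-181c-5p in WT and 56.4% ± 17.1 in *Tet2/3* DKO, a change of 0.46 (SE 0.180, limma adjusted p = 0.0549, exact permutation p = 0.0606) that did not pass the threshold. It passed in 4 of the 13 fits without 1 mouse, with 1 or 5 added to each count (limma adjusted p = 0.0449 and 0.0301) and with at least 10 counts in every library (limma adjusted p = 0.0411). For mir-181d the change was 0.38 (SE 0.351, limma adjusted p = 0.460).

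The distinct 3p arms also allow the arm from chromosome 2 to be set against that from chromosome 1 within a library. In such a ratio the output of each locus and the retention of each 3p arm cannot be told apart. MiR-181a-2-3p was 7.86% ± 1.87 of the sum of both miR-181a 3p arms in WT (SD, n = 6) and 19.9% ± 4.45 in *Tet2/3* DKO (SD, n = 7). The WT shares ran from 4.94% (99 of 2005 counts in replicate 1, Wilson 95% interval 4.07% to 5.98%) to 10.1% (388 of 3857 in replicate 3, 9.15% to 11.0%). The *Tet2/3* DKO shares ran from 13.3% (1264 of 9469 in replicate 2, 12.7% to 14.0%) to 24.1% (1060 of 4406 in replicate 7, 22.8% to 25.3%). These intervals cover counting error only, and whether reads carried molecular identifiers is not given in the sources used here. Every *Tet2/3* DKO mouse was above every WT mouse. The log2 ratio of miR-181a-2-3p to miR-181a-1-3p changed by 1.55 (SE 0.230), a 2.93-fold rise (two-sided exact permutation p = 0.000583, 0.00350 after Benjamini-Hochberg adjustment over the 6 ratios between members that were computed).

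The b pair is given as a description, since its numerator passed the filter on low counts through *Tet2/3* DKO. MiR-181b-2-3p was 21.3% ± 9.41 of both miR-181b 3p arms in WT and 34.9% ± 5.94 in *Tet2/3* DKO, with overlap between the genotypes. The log2 ratio differed by 0.93 (SE 0.315), by 0.75 without WT replicates 5 and 6 and by 0.32 with 5 added to each count.

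The other 4 ratios between members did not pass. The ratio of miR-181b-5p to miR-181a-5p changed by 0.23 (exact permutation p = 0.0583), that of miR-181c-5p to miR-181a-5p by -0.31 (exact permutation p = 0.121), that of miR-181d-5p to miR-181c-5p by 0.23 (exact permutation p = 0.0862) and that of miR-181c-3p to miR-181a-1-3p by -0.36 (exact permutation p = 0.0985). Without *Tet2/3* DKO replicate 7 the last was -0.49 (exact permutation, adjusted p = 0.0195). Without replicate 5 of that genotype the ratio of miR-181b-5p to miR-181a-5p changed by 0.30 (exact permutation, adjusted p = 0.0195).

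**Figure D3:**
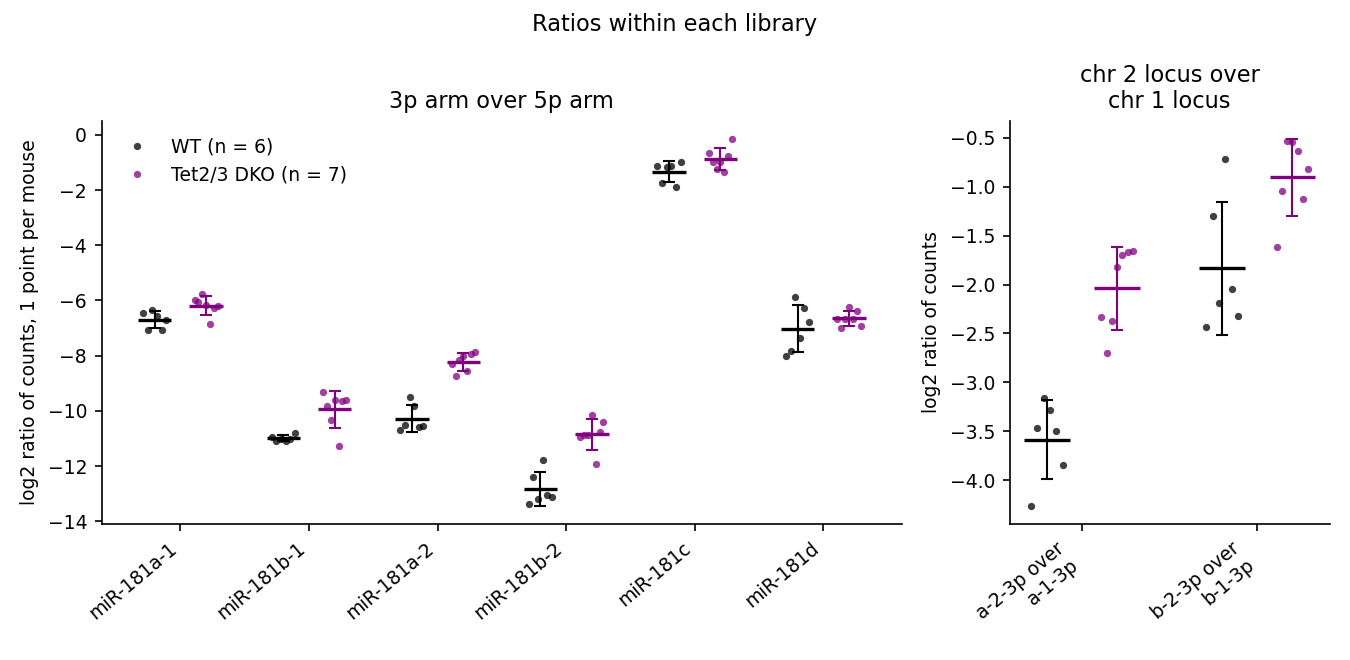
Log2 ratios of counts within each library, with 1 point per mouse (WT black, n = 6, and Tet2/3 DKO purple, n = 7), lines for means and bars for SD. Left, the 3p arm of each locus over the 5p arm it is paired with; right, the 3p arm of the chromosome 2 locus over that of the chromosome 1 locus for miR-181a and miR-181b. The ratios with miR-181a-2-3p as numerator separate the genotypes without overlap.

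The counts in the hairpin table, which are not counts of intact precursors, changed otherwise than those of the 5p arms in the mature table. All 6 miR-181 hairpins rose in *Tet2/3* DKO, where 32.6% of all tested hairpins were called higher (edgeR's quasi-likelihood test, 0.05 as threshold for adjusted p). Their log2 fold changes were between 0.54 and 0.89, with a median of 0.74 against 0.02 for all tested hairpins. Since mir-181a-1 and mir-181a-2 share most of their counts, and mir-181b-1 and mir-181b-2 share their 5p arm, these are fewer than 6 independent measurements.

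The hairpin of mir-181a-1 ranged from 26509 to 52168 CPM among WT mice (median 34664) and from 41631 to 88884 CPM among *Tet2/3* DKO mice (median 61704). WT replicates 1 and 6 reached the level of the lowest *Tet2/3* DKO mouse, replicate 7, and the other 6 *Tet2/3* DKO mice were above every WT mouse. Its log2 fold change of 0.88 had an SE of 0.191 (edgeR adjusted p = 0.000838), and that of mir-181a-2 was 0.89 (SE 0.192, edgeR adjusted p = 0.000826). The hairpin of mir-181b-1 went from 5800 ± 1114 to 9285 ± 2290 CPM (0.68, SE 0.158, edgeR adjusted p = 0.00112) and that of mir-181b-2 from 7180 ± 1204 to 11989 ± 2741 CPM (0.74, SE 0.147, edgeR adjusted p = 0.000301).

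In the cluster on chromosome 8, the hairpin of mir-181c ranged from 879 to 1191 CPM among WT mice (median 1050) and from 1283 to 2313 CPM among *Tet2/3* DKO mice (median 1668). The genotypes did not overlap, as for 18.0% of tested hairpins, and it was the only one of the 6 without overlap. It rose by 0.74 in log2 units (SE 0.140, edgeR adjusted p = 0.000193). The hairpin of mir-181d rose least, from 2188 ± 196 to 3184 ± 668 CPM (0.54, SE 0.129, edgeR adjusted p = 0.00138), and 2 *Tet2/3* DKO mice lay within the WT range. With upper-quartile scaling it was 0.30 and not past the threshold (adjusted p = 0.0723). The other 5 were past the threshold under each scaling tried, and all 6 in each fit without 1 mouse, where the log2 fold changes were at least 0.47.

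Hairpin counts were then set against the counts of the dominant arm of the same library, which is the 5p arm for all 6. Of the 288 hairpins with a tested arm 13.2% had a higher ratio in *Tet2/3* DKO by limma, and all 6 of the miR-181 family did. The median change in log2 ratio was 0.82 for the 6 and 0.03 for all pairs. The summed hairpin counts of a library amounted to 41.9% to 47.6% of its summed mature counts among WT mice and to 39.7% to 44.5% among *Tet2/3* DKO mice, so the hairpin table as a whole was not larger relative to the mature table.

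For mir-181a-1 the hairpin count was 11.0% ± 2.71 of the miR-181a-5p count in WT (SD, n = 6) and 21.5% ± 5.21 in *Tet2/3* DKO (SD, n = 7). WT replicate 6, at 16.2%, was the only WT mouse within the *Tet2/3* DKO range, which began at 14.2%. The log2 ratio changed by 0.96 (SE 0.172, limma adjusted p = 0.00123, exact permutation p = 0.00350). For mir-181b-1 the percentage went from 12.3% ± 1.96 to 17.7% ± 3.46 of miR-181b-5p (0.51, SE 0.119, limma adjusted p = 0.00462, exact permutation p = 0.00758) and for mir-181b-2 from 15.3% ± 2.42 to 22.9% ± 4.05 (0.57, SE 0.113).

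The change was widest for mir-181c. Its hairpin rose, while the fall of its 5p arm depended on scaling, tool and single mice, as given above. Relative to the miR-181c-5p count, the hairpin count ranged from 55.3% to 96.2% among WT mice (median 75.2%) and from 129% to 198% among *Tet2/3* DKO mice (median 154%). In WT every library had fewer hairpin than arm counts, and in *Tet2/3* DKO every library had more. The log2 ratio changed by 1.10 (SE 0.117, limma adjusted p = 2.73e-06, exact permutation p = 0.000583). For mir-181d the percentage was 67.6% ± 9.98 in WT and 109% ± 22.5 in *Tet2/3* DKO (0.67, SE 0.118, limma adjusted p = 0.000908, exact permutation p = 0.000583). The gap between its highest WT mouse (86.8%, replicate 6) and its lowest *Tet2/3* DKO mouse (87.1%) was small. These were the 2 of 6 without overlap, where 3.47% of all pairs had the whole *Tet2/3* DKO group above the whole WT group. Whether a read could be counted in both tables is not given in the sources used here. The mir-181a-1 hairpin count was between 9.02% (WT) and 26.9% (*Tet2/3* DKO) of the miR-181a-5p count. Not every read of this arm was thus also counted for that hairpin. The counts of mir-181a-1 and mir-181a-2 were nearly equal, and the longest run that these hairpins share is the 28 bases that hold the 5p arm. Most of their counted reads thus probably lay in that stretch. A hairpin count can include reads of arms with changed ends, so it is not a count of intact precursors.

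**Figure D4:**
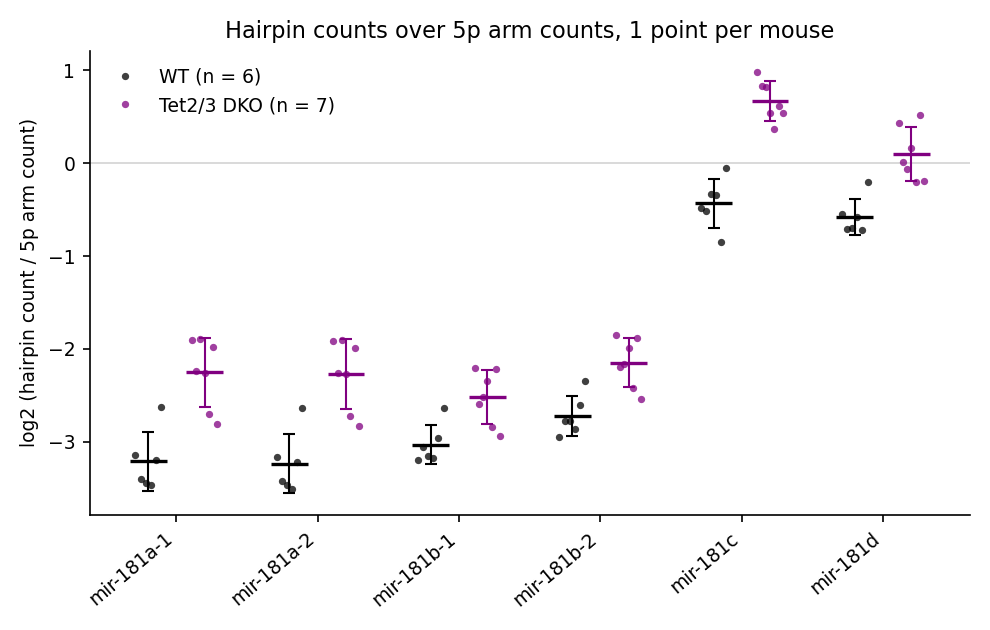
Log2 ratio of the hairpin count to the 5p arm count in the same library for the 6 miR-181 hairpins, with 1 point per mouse (WT black, n = 6, and Tet2/3 DKO purple, n = 7), lines for means and bars for SD. A value of 0 means equal counts; all mir-181c points are below 0 in WT and above 0 in Tet2/3 DKO.

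Across the 13 libraries the members did not form one pattern. The Pearson correlation of log2 CPM was 0.90 between miR-181a-2-3p and the rare miR-181b-2-3p, which share a cluster. It was 0.79 between miR-181a-1-3p and miR-181b-1-3p, which share another, and -0.24 between miR-181c-3p and miR-181d-3p, which share the third. Pairs from different clusters were also high, as miR-181b-1-3p with miR-181b-2-3p (0.85) and with miR-181a-2-3p (0.76). The correlation was 0.17 between miR-181a-1-3p and miR-181a-5p and -0.02 between miR-181a-2-3p and miR-181a-5p. All of these share the same libraries and their scaling, and they include the difference between genotypes. Outside the family, miR-181a-5p was most like miR-17-3p (r = 0.74), miR-330-5p (0.61) and miR-532-5p (0.60). MiR-181a-2-3p was most like miR-31-5p (r = 0.94), miR-467a-5p (0.93) and miR-17-5p (0.91), each of which rose in *Tet2/3* DKO (log2 fold changes 4.12, 0.94 and 0.89). Within *Tet2/3* DKO alone these correlations were -0.14, -0.04 and 0.02, and within WT 0.49, 0.25 and 0.71.

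Other miRNAs with known roles in T or iNKT cells, a list of 22 hairpins, were called about as often as all hairpins. Of the 21 that could be tested 7 were higher in *Tet2/3* DKO, 6 were lower and 8 were not past the threshold (edgeR, same threshold), where 32.6% of all tested hairpins were higher and 27.1% lower. Their median log2 fold change was 0.06, against 0.02 for all. Of their 22 dominant arms 7 were higher, 6 lower and 9 not past the threshold, where 28.2% of all tested mature sequences were higher and 27.4% lower, with a median of 0.17 against -0.01. In these bulk libraries of sorted cells, fewer cells of one iNKT subset and less of a miRNA per cell cannot be told apart.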

How the data were processed

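Small RNA of sorted thymic iNKT cells was sequenced from one end by the authors, 1 library per mouse, and processed with nf-core/smrnaseq (2.2.4) with default parameters. The authors deposited raw counts per hairpin and per mature sequence, without normalization. The processing notes of the submitters name mm10. Aligner, miRNA database release and counting of reads with several matches are not given in the sources used here. Column names gave the genotype and number of each mouse, and 0 columns went unused.

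The deposited counts were filtered by filterByExpr (minimum count 10, minimum total 15), scaled by TMM and compared by robust quasi-likelihood tests of edgeR 4.0.16 with genotype only, adjusted by the Benjamini-Hochberg method over each whole table, with a threshold of 0.05. SE is the size of a log2 fold change divided by the square root of F. Log2 ratios (0.5 added to counts) were fitted across all pairs with limma 3.58.1 (robust, with trend). Exact permutation tests were two-sided. Correlations used log2 CPM with a prior count of 2. Scripts were tested on simulated data. R 4.3.3, DESeq2 1.42.0, Python 3.11.15 and matplotlib 3.10.9 were used. No pair of libraries of one genotype agreed within sampling noise (chi-square per degree of freedom at least 15.0).

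The members, lists and comparisons were chosen with earlier results of these data known. MiRNAs named beside the family are the 3 most correlated with miR-181a-5p and with miR-181a-2-3p, and cell type markers. The listed mir-142 was matched as mir-142a, its RefSeq synonym. Alternatives were other scalings and filters, DESeq2, limma-voom, other added counts, replicate number as a block (replicates 1 to 6 of each genotype) and leaving out each mouse. Leaving out WT replicates 5 and 6, or the shallowest library of each genotype, replicates 1 to 6 unpaired, and each library as TMM reference were added after seeing the data.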

Additional observations from a re-analysis of the deposited data

Results flagged for a closer look

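Among 74 sets of values (each member or ratio in one genotype), 2 had a mouse whose gap to the nearest other mouse was large for the range of its group by Dixon's criterion, which chance gives in about 1 of 20 sets. MiR-181c-3p in *Tet2/3* DKO replicate 7 was at 364 CPM, and the next highest mouse was at 270.2 CPM. The log2 ratio of hairpin to 5p arm of mir-181d was -0.20 in WT replicate 6 and -0.55 in the next highest WT mouse.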

How the results depend on the processing

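All 6 hairpins were higher under each alternative except upper-quartile scaling, which gave 5, and their ratios to the 5p arm and the rise of miR-181a-2-3p kept direction and call under every alternative run. The count of lower mature members, 1 as reported, was 0 with library size only, with at least 1 count in 1 library, with DESeq2 and without the shallowest library of each genotype, 2 with upper-quartile scaling, and from 0 to 1 without each mouse. Lower hairpins among all tested, 95 as reported, were 56 with library size only, 156 with at least 1 count in 1 library and 164 with DESeq2. The ratio of miR-181a-2-3p to miR-181a-1-3p was past the threshold under every alternative run and without each mouse. That of miR-181c-3p to miR-181a-1-3p passed without the shallowest library of each genotype (-0.55). Correlations of deviations between mice of equal replicate number were from -0.05 to 0.34. In hairpin and in mature counts, 2 of the 6 WT mice correlated best with the *Tet2/3* DKO mouse of their own number. These values cannot settle whether the numbers pair the mice, and the main fits used no pairing. With replicate number as a block, 6 hairpins, 4 higher and 1 lower mature members and 5 arm ratios were past the threshold. The arm ratio of mir-181c was at a limma adjusted p = 0.0490. The higher members and the arm ratios include miR-181b-2-3p, which is described without a test. Also past the threshold were 4 ratios between members, among them the b pair, which is given only as a description. An exact test over 6 pairs of mice has few possible p-values. Its adjusted p was 0.0469 for miR-181b-5p to miR-181a-5p and for miR-181c-3p to miR-181a-1-3p, so these calls carry little weight. Few counts limit miR-181b-2-3p, miR-181b-1-3p and miR-181d-3p. The causes of these changes were not tested.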
